A study of Mus musculus with 4 samples.

Results

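Adipocyte genes and adipokines were followed here in immune cells of the fat. The 10 members, chosen as a list of names, are the rows for Adipoq, Cfd, Lep, Retn, Plin1, Cidec, Lipe, Fabp4, Scd1 and Pparg, out of 35869 genes with a row in each library. RNA-seq was done on CD45+ cells, that is cells carrying the surface protein of leukocytes, which were pulled with microbeads from collagenase-digested epididymal white adipose tissue (eWAT). The mice were male WT C57BL/6 animals that received a normal diet (ND) or a high-fat diet (HFD) from 8 weeks of age for 12 weeks, and each diet had 2 libraries. How many mice went into a library is not stated, so the p-values measure only the spread between these libraries, which may be technical.

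White adipocytes store triglyceride in a single large lipid droplet and release hormones, the adipokines, into the blood. PPARG is the nuclear receptor that drives adipocyte differentiation and directly switches on most of the other genes described here. PLIN1 and CIDEC coat and enlarge the droplet, LIPE is the hormone-sensitive lipase, FABP4 carries fatty acids and SCD1 desaturates them. Several of these genes are not restricted to adipocytes. FABP4 and PPARG are also made by macrophages and FABP4 by capillary endothelium, and PPARG is known from the regulatory T cells of visceral fat. Floating adipocytes are normally left behind when the stromal vascular fraction is spun down.

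The values are TPM, in which the reads of a gene are divided by its length and scaled to one total for every library, so levels can be set side by side between genes. Pan-leukocyte genes were present in all libraries: 6 such genes summed to 3776 and 3768 TPM on ND and 3979 and 4149 TPM on HFD. Tyrobp held the largest part, with 2027 and 2022 TPM on ND and 2336 and 2451 TPM on HFD. Ptprc, which encodes CD45 itself, had 54.5 and 59.4 TPM on ND and 55.3 and 53.7 TPM on HFD. By the rule given below, Lcp1 was called higher on HFD (log2 fold change 0.82) and Coro1a lower (-0.71). From the step between the values of short microRNA genes, the libraries held approximately 37600000 to 46900000 counted reads, and 1 read on a gene of 1 kb was worth 0.0606 to 0.0711 TPM. Read numbers given below use exon lengths of GENCODE vM21 and are approximate. All tests compared log2(TPM + 1) between HFD and ND in limma over 16849 genes with at least 1 TPM in at least 2 libraries. A gene was called when its Benjamini-Hochberg adjusted p was under 0.05 and its change at least 1.5-fold.

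All 10 members passed the filter on low values, Lep through its HFD libraries and 1 ND library, and Cfd and Retn through ND alone. Of the 10, 2 were called higher on HFD (Lep and Pparg), 3 were called lower (Cfd, Retn and Scd1) and 5 were not called (Adipoq, Plin1, Cidec, Lipe and Fabp4). Over all genes tested, 18.4% were called, 8.08% as higher and 10.3% as lower on HFD. On the log2 scale, the changes of the members ran from -4.07 to 1.48 with a median of -0.26, beside a median of 0.056 over all genes tested. In 9 of the 10 members the HFD libraries lay on one side of the ND libraries without overlap, and this also held for 66.9% of all genes tested. An exact two-sided permutation test of the 4 values of a single gene cannot give a p under 0.333 in this design, and it gave this smallest p for each member other than Lipe. Lower RNA of a gene in such bulk samples may mean fewer cells that make it, less RNA per cell or less RNA carried over from cells outside the selection. These cannot be told apart.

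**Figure D1:**
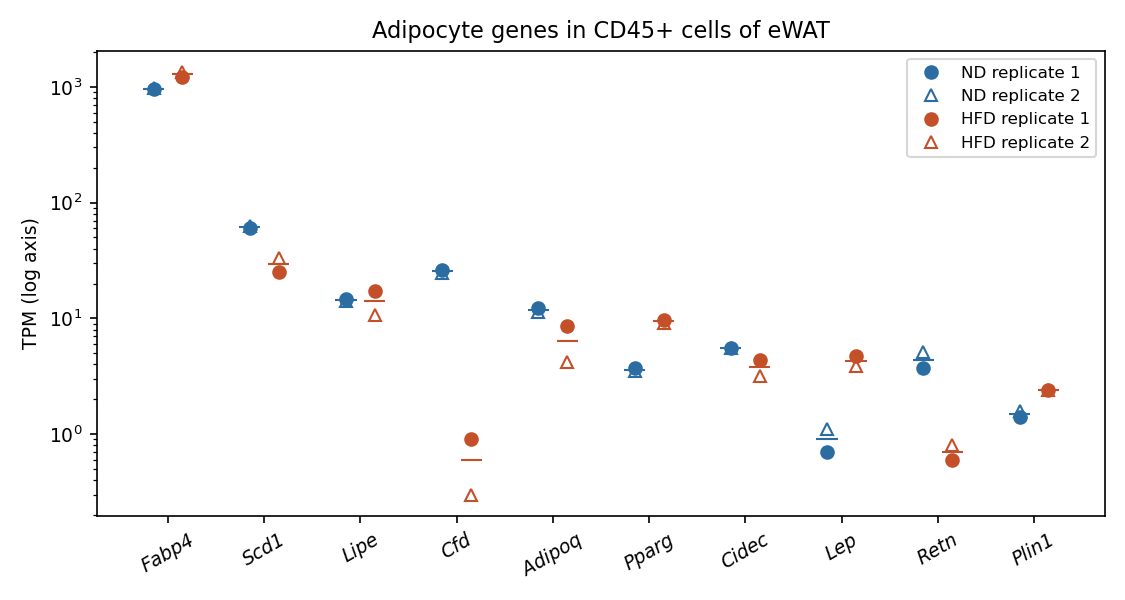
TPM of the 10 adipocyte genes in each library on a log axis, ordered by the mean over the 4 libraries; filled circles are replicate 1, open triangles replicate 2 and short bars the mean of a diet. Fabp4 lay between 950.5 and 1346.5 TPM in the 4 libraries, while Cfd fell from 26.3 and 24.6 TPM on ND to 0.9 and 0.3 TPM on HFD.

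By level, Fabp4 stood far above the others in both diets, with 965.5 ± 21.2 TPM on ND and 1279 ± 95.1 TPM on HFD (SD, n = 2 each, as for all means below). In ND, Scd1, Cfd, Lipe, Adipoq and Cidec followed without overlap between neighbours, whereas Retn and Pparg met at 3.7 TPM and lay above Plin1 and Lep. In HFD the order after Fabp4 was Scd1, Lipe, Pparg, Adipoq, Lep, Cidec, Plin1, Retn and Cfd. There the values of Adipoq, Lep and Cidec overlapped one another, as did those of Retn and Cfd.

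Among the adipokines, Cfd had the largest change of any member. Cfd encodes complement factor D (adipsin), the serine protease that cleaves factor B in the alternative complement pathway and one of the most abundant secreted products of fat cells. The gene lies on the plus strand at chr10:79890853-79892655 (mm10, GENCODE vM21). Cfd had 26.3 and 24.6 TPM in the ND libraries and 0.9 and 0.3 TPM in the HFD libraries. Every HFD value was far below every ND value, and the HFD values rested on approximately 13.4 and 3.9 reads against 345 and 374 on ND. The means were 25.45 ± 1.20 TPM on ND and 0.60 ± 0.424 TPM on HFD, a log2 fold change of -4.07 (standard error, SE, 0.23, adjusted p = 0.00626 in limma with Benjamini-Hochberg adjustment). Only 4 of the 16849 genes tested had a lower log2 fold change. The call held without either HFD library but was lost without ND replicate 1 (-4.03, adjusted p = 0.167) or ND replicate 2 (-4.12, adjusted p = 0.161), when no gene of the whole table was called.

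Adipoq, on chr16:23146536-23158028, encodes adiponectin, the hormone most specific to adipocytes. It had 12.4 and 11.3 TPM on ND, and 8.6 TPM for HFD replicate 1 and 4.2 TPM for HFD replicate 2. Both HFD libraries were lower than the ND libraries, but they were 2.05-fold apart from each other. The log2 fold change was -0.86 (SE 0.35, adjusted p = 0.167 in limma) and did not pass the test. The approximate read numbers were 244 and 258 on ND and 192 and 81.6 on HFD. Without HFD replicate 1 the log2 fold change was -1.30 and the gene was called (adjusted p = 0.0387 in limma), and without HFD replicate 2 it was -0.42 and the gene was not called.

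Lep, on chr6:29060220-29073877, encodes leptin, the satiety hormone whose release follows fat mass. It had 0.7 and 1.1 TPM on ND and 4.7 and 3.9 TPM on HFD. Both HFD values were above both ND values, on approximately 33.4 and 60.9 reads on ND and 255 and 184 reads on HFD. Lep was called higher, with a log2 fold change of 1.48 (SE 0.17, adjusted p = 0.0171 in limma), and its mean TPM was 4.78-fold higher on HFD. It was the member that moved the most in the direction opposite to Cfd. With the replicate number as a block its adjusted p was 0.0728, and without a filter on low values 0.0672. The call was also lost whichever library was left out, with log2 fold changes of 1.33 to 1.64 and adjusted p from 0.0505 (without HFD replicate 2) to 0.172 (without ND replicate 1).

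Retn, on chr8:3655770-3660110, encodes resistin, a cysteine-rich hormone that in mice comes mainly from adipocytes. It had 3.7 and 5.1 TPM on ND and 0.6 and 0.8 TPM on HFD, with no overlap between the diets, on approximately 83.2 and 133 reads on ND and 15.3 and 17.8 on HFD. The log2 fold change was -1.66 (SE 0.18, adjusted p = 0.0160 in limma). This call too was lost whichever library was left out, with log2 fold changes of -1.85 to -1.47 and adjusted p from 0.0563 (without HFD replicate 2) to 0.167 (without ND replicate 1), and with the replicate block (0.0527) or no filter (0.0647). Its 2 tested relatives fell as well. Retnla, which encodes RELM-alpha of alternatively activated macrophages, had 8061 and 7343 TPM on ND and 2035 and 1067 TPM on HFD (log2 fold change -2.38, adjusted p = 0.0273). Retnlg, a gene of neutrophils, had 13.4 and 19.1 TPM on ND and 6.1 and 6.6 TPM on HFD (-1.21, adjusted p = 0.0317), and Retnlb did not exceed 0.3 TPM in any library. No stretch of 50 bases is shared between the GENCODE transcripts of Retn and those of the 3 relatives. Neutrophil genes went down beside Retn: of 10 listed, 5 were tested and all 5 were called lower, Retnlg among them, with summed levels of 72.2 and 95.9 TPM on ND and 29.1 and 31.1 TPM on HFD. S100a8, the most abundant, had 29.5 and 41.3 TPM on ND and 12.4 and 14.6 TPM on HFD, and S100a9, Csf3r and Cxcr2, the last tested through ND alone, were the others called. The 5 that were not tested, Ly6g, Elane, Mpo, Ngp and Camp, did not exceed 0.5 TPM in any library. Their part in the change of Retn was not tested.

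The genes of the droplet proteins were not called. Plin1, on chr7:79720218-79732903, encodes perilipin-1, the gatekeeper of lipolysis on the adipocyte droplet. It had 1.4 and 1.6 TPM on ND and 2.4 TPM in each HFD library, on approximately 92.7 to 181 reads. The groups did not overlap, but the log2 fold change of 0.44 (SE 0.10, adjusted p = 0.0602 in limma) passed neither threshold. Cidec, on chr6:113424634-113435760, encodes FSP27, which fuses droplets. It had 5.5 TPM in each ND library and 4.4 and 3.2 TPM on HFD. Its log2 fold change was -0.45 (SE 0.16, adjusted p = 0.136 in limma), not called, although without HFD replicate 1 it was -0.63 and called (adjusted p = 0.0380). In Plin1 and Cidec, 2 droplet genes at low levels, the values thus pointed in opposite directions and neither was called.

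Lipe, on chr7:25379527-25398710, had 14.8 and 14.0 TPM on ND and 17.3 and 10.7 TPM on HFD. The ND values lay between the HFD values, and the log2 fold change was -0.073 (SE 0.26, adjusted p = 0.853 in limma). Without HFD replicate 2 it was 0.25 and without HFD replicate 1 it was -0.40, neither called. HFD replicate 1 was also the library highest in spermatid genes, of which 8 (0 called, and 0 at an unadjusted p under 0.05 in limma) summed to 1911 and 1938 TPM on ND, 7245 TPM for HFD replicate 1 and 2190 TPM for HFD replicate 2. Lipe has a second start used in testis, and the part of these transcripts in its values was not tested. The antisense gene 4732471J01Rik shares 918 exon bases with Lipe on the other strand and had 11.5, 11.1, 10.9 and 7.7 TPM for ND replicate 1, ND replicate 2, HFD replicate 1 and HFD replicate 2. Whether the counting used strand is not stated, so reads of the pair may have been exchanged.

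Fabp4, on chr3:10204088-10208576, encodes the fatty acid binding protein called aP2. It had 950.5 and 980.5 TPM on ND and 1212 and 1346.5 TPM on HFD. Both HFD values were above both ND values, and the adjusted p was 0.0323 in limma, but the log2 fold change of 0.40 (SE 0.067) was under the limit of 1.5-fold, so it was not called. The neighbouring family member Fabp5, which encodes the epidermal form that macrophages also make, had 55.4 and 59.2 TPM on ND and 308.1 and 314 TPM on HFD. It was called higher with a log2 fold change of 2.42 (SE 0.052, adjusted p = 0.00378 in limma). The transcripts of Fabp4 and Fabp5 share no stretch of 50 bases. Endothelial genes, which mark another cell type with high Fabp4, gave no call: of 12 listed and tested, 0 were called and 7 had an unadjusted p under 0.05 in limma, their median log2 fold change was 0.15, and they summed to 711 and 718 TPM on ND and 814 and 912 TPM on HFD.

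Scd1, on chr19:44394455-44407879, encodes the stearoyl-CoA desaturase that makes monounsaturated fatty acids. It had 60.9 and 62.4 TPM on ND and 25.2 and 33.5 TPM on HFD, each HFD value well under the ND values. The log2 fold change was -1.06 (SE 0.16, adjusted p = 0.0270 in limma), and the mean TPM was 2.10-fold lower on HFD. Its paralog Scd2 had 34.1 and 37.7 TPM on ND and 36.4 and 36.8 TPM on HFD (log2 fold change 0.029, adjusted p = 0.793). Of 4888 stretches of 50 bases in the Scd1 transcripts, 145 are shared with Scd2 and 167 with its relative Scd3, which did not exceed 0.4 TPM in any library. Only a small part of the Scd1 reads could thus be ambiguous with either relative. The call of Scd1 was lost under median-ratio scaling, where the log2 fold change was -1.08 and the adjusted p 0.0539, with the replicate block (adjusted p = 0.0631) and without the filter (adjusted p = 0.0980). It was lost without ND replicate 1 (-1.08, adjusted p = 0.229) or ND replicate 2 (-1.04, adjusted p = 0.223) and held without either HFD library.

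Pparg, on chr6:115360951-115490399, had 3.7 and 3.5 TPM on ND and 9.7 and 9.2 TPM on HFD. The HFD values were all above the ND values and close to each other, on approximately 156 and 171 reads on ND and 463 and 382 reads on HFD. The means were 3.60 ± 0.141 TPM on ND and 9.45 ± 0.354 TPM on HFD, and the log2 fold change was 1.18 (SE 0.086, adjusted p = 0.00868 in limma). With the replicate block the adjusted p was 0.0576, without ND replicate 1 it was 0.167 and without ND replicate 2 it was 0.161, and the call held without either HFD library. Genes of lipid-associated macrophages, which are myeloid cells that can express Pparg, rose beside it: all 10 listed were called higher, with a median log2 fold change of 2.77 and sums of 1562 and 1610 TPM on ND and 10826 and 11255 TPM on HFD. Markers of fat regulatory T cells went the other way, with 7 of 8 tested called lower and sums of 393.5 and 403.5 TPM on ND and 104.5 and 116.3 TPM on HFD. Foxp3 was the tested marker not called, with 7.5 and 7.3 TPM on ND and 5.0 and 5.6 TPM on HFD. Its log2 fold change was -0.42 (adjusted p = 0.0567 in limma), so the fall in the sums is not shown by every marker. One of the 7, Gata3, was tested through ND alone, where it is higher. Their part in the change of Pparg was not tested.

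**Figure D2:**
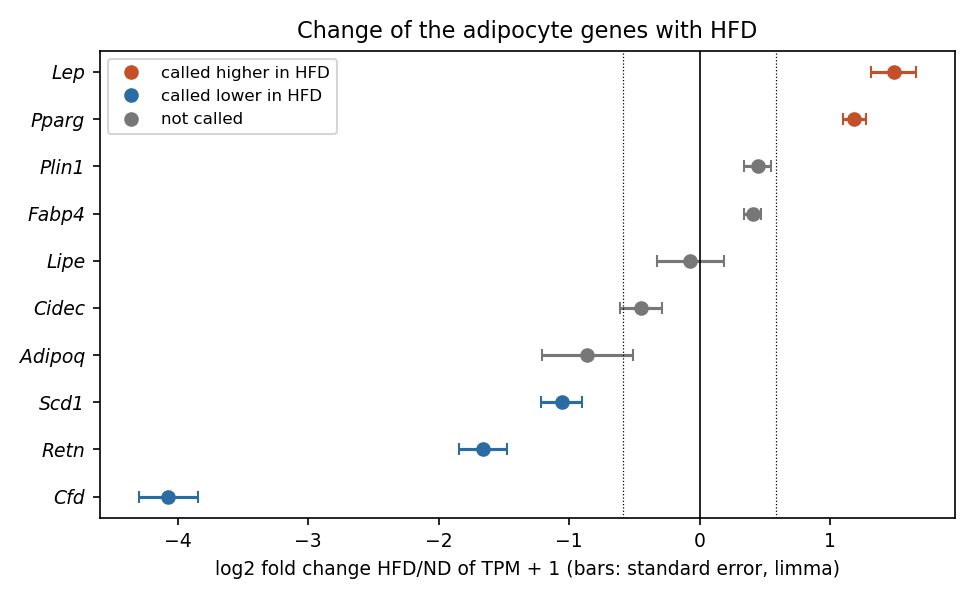
Log2 fold change of TPM + 1 between HFD and ND for the 10 adipocyte genes with its standard error from limma; orange points were called higher, blue points called lower and gray points not called, and the dotted lines mark 1.5-fold. Lep (1.48) and Pparg (1.18) lie to the right, Cfd (-4.07) far to the left.

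The sequences around the transcription start are shown for the pair of members with the largest falls, Cfd and Retn, and the pair that rose, Lep and Pparg, to set genes that moved in opposite directions side by side. RefSeq (GRCm38.p6, the assembly called mm10) gave a promoter for 8 of the 10 members. The windows run 5′ to 3′ on the gene's own strand, which is the plus strand for these 4 genes, from 250 bases before the start to 50 bases from it. Capitals mark matches, on either strand, to 6 motifs. The half-site of PPAR and other nuclear receptors was searched as AGGTCA, along with its direct repeat with 1 base between. The motif of C/EBP factors was searched as TTGCNNAA, and the box bound by NF-Y as CCAAT. The box of the TATA-binding protein was searched as TATAAA, and the E-box of helix-loop-helix factors as CACGTG. The half-site is part of the direct repeat, and no other motifs contain each other. Positions count the first transcribed base as 0.
Cfd, chr10:79890603-79890902: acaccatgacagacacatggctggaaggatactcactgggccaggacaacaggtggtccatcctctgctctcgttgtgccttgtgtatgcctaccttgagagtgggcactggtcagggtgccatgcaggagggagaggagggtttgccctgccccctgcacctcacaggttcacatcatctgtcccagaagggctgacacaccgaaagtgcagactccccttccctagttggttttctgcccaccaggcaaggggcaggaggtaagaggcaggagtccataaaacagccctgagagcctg
Retn, chr8:3655520-3655819: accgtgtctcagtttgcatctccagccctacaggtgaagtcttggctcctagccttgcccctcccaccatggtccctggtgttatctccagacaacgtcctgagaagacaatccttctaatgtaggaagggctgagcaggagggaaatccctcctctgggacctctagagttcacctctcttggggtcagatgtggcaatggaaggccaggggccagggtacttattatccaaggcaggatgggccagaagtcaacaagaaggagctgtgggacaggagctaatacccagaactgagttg
Lep, chr6:29059971-29060270: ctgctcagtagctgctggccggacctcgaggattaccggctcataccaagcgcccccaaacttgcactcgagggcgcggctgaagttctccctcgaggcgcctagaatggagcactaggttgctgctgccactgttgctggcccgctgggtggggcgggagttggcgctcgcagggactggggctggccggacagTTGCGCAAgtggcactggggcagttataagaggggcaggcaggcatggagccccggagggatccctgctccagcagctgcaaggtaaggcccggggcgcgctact
Pparg, first of 3 starts, chr6:115360894-115361193: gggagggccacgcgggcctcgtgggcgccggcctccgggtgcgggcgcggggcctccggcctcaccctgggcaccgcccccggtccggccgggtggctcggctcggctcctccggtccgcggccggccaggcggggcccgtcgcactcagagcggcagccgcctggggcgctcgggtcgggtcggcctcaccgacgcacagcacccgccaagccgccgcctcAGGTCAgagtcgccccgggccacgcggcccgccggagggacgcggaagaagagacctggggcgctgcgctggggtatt
In these letters, Cfd and Retn held no match to any of the 6 motifs. Lep held the C/EBP palindrome TTGCGCAA from -55 to -48, and Pparg an AGGTCA half-site from -28 to -23. Over the first promoter of 27025 genes, 16.0% held AGGTCA, 10.8% TTGCNNAA, 37.9% CCAAT, 14.2% TATAAA, 7.24% CACGTG and 0.0444% the direct repeat, which the first promoter of none of the 8 members held. In the first promoters of the other members, Plin1 held 2 C/EBP matches, TTGCCTAA from -187 to -180 and TTGCCCAA from -58 to -51, Adipoq held 3 CCAAT matches within 34 bases before the start, Lipe held CACGTG from -155 to -150 and Cidec held no match. Later starts of Cidec and Pparg held further matches. These matches describe the letters of short windows and say nothing of binding.

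To see which members moved together, Adipoq, the most adipocyte-specific of them, was taken as the reference. The level of each other member was given as its log2(TPM + 1) less that of Adipoq in the same library, and the range of this difference over the 4 libraries was read without a test. Cidec kept closest to Adipoq, with a range of 0.74, from -1.04 for ND replicate 1 to -0.31 for HFD replicate 2. Lipe followed with 0.93, Scd1 with 1.28 and Retn with 1.57. Adipoq itself spanned 1.37 over the 4 libraries, so a gene at one constant level would have a range of 1.37 here. Scd1 lies near this value and Retn above it, so their ranges do not show that they moved with Adipoq. On their own log2(TPM + 1) scale, without Adipoq taken off, Cidec spanned 0.63 and Lipe 0.65. Fabp4 and Plin1 had ranges of 1.87, Pparg 2.48, Lep 2.89 and Cfd 3.39. In TPM, there were 2.12 and 2.18 Cfd transcripts for each Adipoq transcript on ND and 0.105 and 0.0714 on HFD. For Lep the ratio went the other way, from 0.0565 and 0.0973 on ND to 0.547 and 0.929 on HFD, and for Pparg from 0.298 and 0.310 to 1.13 and 2.19. The members thus did not keep one ratio across the diets. For low genes these ranges depend on the added 1, and with 0.1 in its place they were 4.54 for Cfd, 3.86 for Lep, 2.83 for Pparg, 2.5 for Retn, 2.28 for Plin1, 2.04 for Fabp4, 1.43 for Scd1, 1.08 for Lipe and 0.78 for Cidec, which puts Retn farther from Adipoq than Plin1 and Fabp4.

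**Figure D3:**
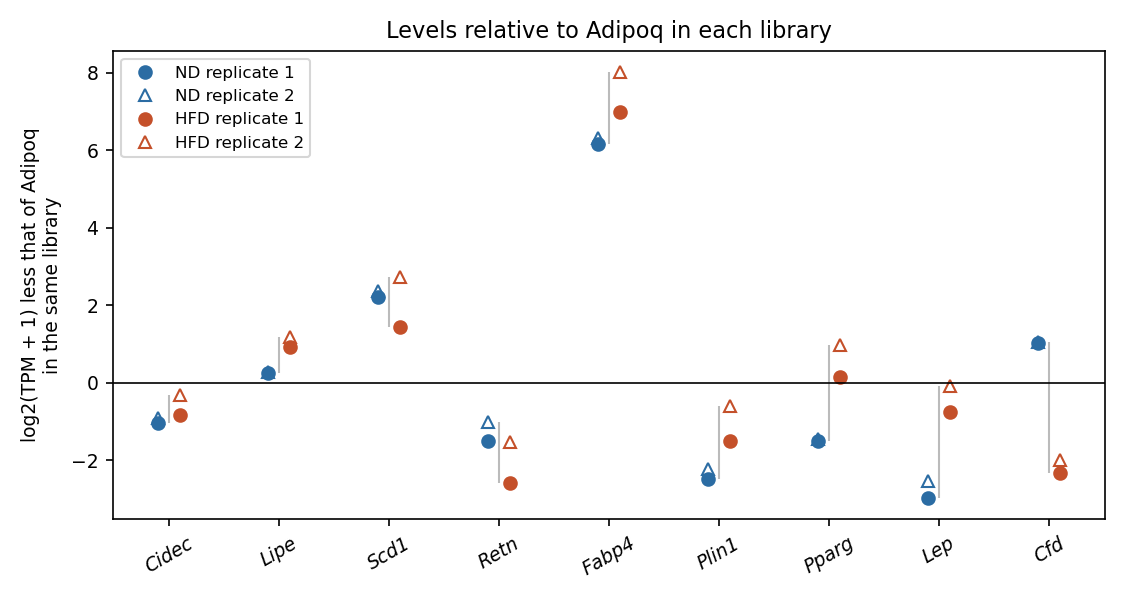
Level of 9 adipocyte genes relative to Adipoq in the same library, as the difference of log2(TPM + 1), ordered by the range over the 4 libraries; blue is ND, orange HFD, circles replicate 1 and triangles replicate 2. Cidec spans 0.74 and Cfd 3.39. In both HFD libraries Lep, Pparg, Plin1, Fabp4, Lipe and Cidec lie above their ND values and Cfd below. Retn lies below by a narrow margin (-1.53 for HFD replicate 2 against -1.51 for ND replicate 1), and Scd1 overlaps. Adipoq itself was lower in both HFD libraries, so a gene with unchanged TPM also lies higher on HFD here. How many of all genes separate on this measure was not counted.

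The HFD libraries also differed from each other in the members. As HFD replicate 2 less replicate 1 on the log2(TPM + 1) scale, Adipoq was at -0.88, Lipe at -0.65, Cfd at -0.55, Cidec at -0.36 and Lep at -0.22. Pparg was at -0.069 and Plin1 at 0, whereas Fabp4 was at 0.15, Retn at 0.17 and Scd1 at 0.40. Over the 15256 genes at or above 1 TPM in each of the pair, the median was -0.064, percentile 5 was -1.58 and percentile 95 was 0.45. All members lay between these percentiles, so their spread was that of most genes. Cfd and Retn, under 1 TPM in both HFD libraries, are not among these genes, and the value of Cfd rests on approximately 13.4 and 3.9 reads. In the same difference, fibroblast and progenitor genes ran from 0.51 to 1.12 over 11 genes tested and spermatid genes from -2.03 to -1.59 over 8, so no member went as far as the spermatid genes. The ND libraries differed by at most 0.38, in Retn.

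Genes with the pattern most like Adipoq and Cfd were sought among 10722 others with a mean of at least 5 TPM, by the root mean square distance of the centred log2(TPM + 1) over the 4 libraries. The closest to Adipoq were Tnni3, which encodes cardiac troponin I (distance 0.071), A930024E05Rik (0.076), Osgin1 (0.078), Vsig4, a complement receptor of resident macrophages (0.11), and Gm31224 (0.11). None of these was called. Tnni3 had 17.5 and 14.7 TPM on ND and 12.8 and 5.7 TPM on HFD, and 133 genes lay within 0.25 of Adipoq. The closest to Cfd were the chemokine genes Ccl26 (0.12) and Ccl24 (0.17), the microRNA gene Mir7094-2 (0.25), Timd4, a phosphatidylserine receptor of resident macrophages (0.26), and the lectin gene Cd209g (0.27), and only 3 genes lay within 0.25. All 5 were called lower, which follows from choosing them for likeness to Cfd. Ccl24 had 288.6 and 295.6 TPM on ND and 26.9 and 14.5 TPM on HFD, and Timd4 had 71.5 and 76.3 TPM on ND and 6.0 and 4.5 TPM on HFD.

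Beyond the members, 20 further adipocyte-restricted genes were listed, of which 19 had a row and 13 were tested. Among these 1 was called higher, 5 were called lower and 7 were not called, with a median log2 fold change of -0.40. Those that fell were Cyp2e1 (-2.36), Car3 (-2.06), Pck1 (-1.83), Thrsp (-1.43) and Sncg (-1.07). Car3, which encodes the carbonic anhydrase of fat and muscle and was the most abundant, had 100.7 and 101.6 TPM on ND and 28.1 and 19.7 TPM on HFD. Cyp2e1 had 6.1 and 6.8 TPM on ND and 0.4 and 0.5 TPM on HFD, and Pck1, the gate of glyceroneogenesis, 5.0 and 4.7 against 0.8 and 0.5 TPM. Both passed the filter on low values through ND alone, so 2 of the 5 falls are of genes that had to be higher on ND to be tested. Mest, a gene of fat expansion, rose from 2.6 TPM in each ND library to 4.9 and 4.5 TPM on HFD (0.66). Of the 7 not called, 3 had a log2 fold change above 0. These were Ghr, the growth hormone receptor (0.61), with 2.0 and 2.7 TPM on ND and 3.3 and 5.0 TPM on HFD, Gpd1, which makes glycerol phosphate (0.58), with 8.9 and 8.5 against 15.1 and 12.0 TPM, and Aqp7, the glycerol channel (0.28), with 9.8 and 10.3 against 13.8 and 11.2 TPM. The other 4, Nat8l, Slc2a4, Nnat and Tmem120b, ran from -0.58 to -0.18. The 6 genes with a row that were not tested were Slc36a2, at most 0.9 TPM, Plin4, at most 0.5 TPM, and Adrb3, Cidea, Pnpla3 and Slc7a10, each at most 0.3 TPM. Of 8 brown adipocyte markers, 3 were tested and 1 was called, Dio2, the deiodinase that activates thyroid hormone, which rose from 0.2 TPM in each ND library to 1.0 and 1.2 TPM on HFD (0.81, adjusted p = 0.0243 in limma). Dio2 passed the filter through HFD alone, where it is higher. Cox7a1 stood at 9.3 to 14.3 TPM and Cox8b at 0.8 to 1.7 TPM, neither called. The uncoupling protein gene Ucp1 did not exceed 0.7 TPM, Otop1 0.5 TPM, Cidea 0.3 TPM and Elovl3 0.1 TPM, and Zic1 was at 0 in all libraries.

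Genes of fatty acid uptake, which supply the fatty acids that FABP4 binds, were next. Of 8 listed, 7 were tested, 4 were called higher and none lower, with a median log2 fold change of 1.21. Lpl, lipoprotein lipase and the most abundant, had 684.1 and 714.8 TPM on ND and 2999 and 3008 TPM on HFD (2.10), and Fabp5, described above, had the largest rise. The other 2 were Slc27a1 (1.77), a fatty acid transporter, and Cd36 (1.21), the fatty acid translocase and a target of PPARG. Lpl and Fabp5 are also in the list of lipid-associated macrophages. Of the 14 further droplet and lipolysis genes, 12 were tested, 4 were called higher and 1 lower, with a median of 0.42. Plin2, which coats droplets in cells other than adipocytes, had 189.9 and 186.6 TPM on ND and 562.4 and 615.7 TPM on HFD (1.64). Hilpda, an inhibitor of lipolysis, rose by 1.64, and Abhd5 and Plin3 also rose. G0s2, another lipolysis inhibitor, had 37.8 and 42.3 TPM on ND and 12.8 and 20.4 TPM on HFD (-1.25, adjusted p = 0.0470 in limma). Plin1, the adipocyte form, was at most 2.4 TPM in the same libraries.

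Scd1 was called lower, while none of the other listed genes of lipid synthesis was called. Of 16 listed, 13 were tested, 0 were called and 3 had an unadjusted p under 0.05 in limma, with a median log2 fold change of 0.0074. Fasn, fatty acid synthase, had 35.1 and 37.7 TPM on ND and 26.7 TPM in each HFD library, a log2 fold change of -0.43 with an adjusted p of 0.0249 in limma but under 1.5-fold. Insig1, the most abundant, which holds back SREBP, had 140.8 and 145.7 TPM on ND and 127.8 and 117.7 TPM on HFD. Among adipogenic transcription factors, 10 of 15 were tested, with 1 called higher, 2 lower and a median of -0.37. Nr1h3, the lipid sensor LXR-alpha, had 4.7 and 4.9 TPM on ND and 21.2 and 20.9 TPM on HFD (1.93, adjusted p = 0.00449) and thus rose as Pparg did. Rxra, the gene of the receptor with which PPARG pairs, had 24.0 and 24.9 TPM on ND and 15.7 and 14.6 TPM on HFD (-0.66, adjusted p = 0.0150). Klf4, the most abundant, had 1288 TPM in each ND library and 827.4 and 841.8 TPM on HFD (-0.63). Cebpa, which sustains Pparg in adipocytes, had 43.9 and 43.7 TPM on ND and 65.8 and 63.2 TPM on HFD, a log2 fold change of 0.55 under the limit (adjusted p = 0.0113). Of 14 genes listed for their link to PPARG in myeloid cells, all tested, 4 were called higher and 2 lower, with a median of 0.39. Lipa (2.06), lysosomal acid lipase, and Abcg1 (1.84), a cholesterol exporter, had the largest rises and Ltc4s (-3.01), leukotriene C4 synthase, and Aldh1a2 (-1.69), which makes retinoic acid, fell. Ucp2, the most abundant of this list, had 1039 and 999.2 TPM on ND and 1318 and 1385 TPM on HFD and was not called.

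Other adipokines were called in both directions. Of 16 listed, 13 were tested, 4 were called higher and 2 lower, with a median of 0.16. One of the 4, Sfrp5, was tested through HFD alone, where it is higher. Vegfa, the angiogenic factor, had 7.3 and 7.4 TPM on ND and 20.8 and 26.9 TPM on HFD (1.56). C1qtnf1, a relative of adiponectin, had 44.9 and 45.0 TPM on ND and 16.4 and 11.5 TPM on HFD (-1.64), and Lcn2, lipocalin-2, fell as well (-1.11). Metrnl, the most abundant, had 343.2 and 341.3 TPM on ND and 385.1 and 380.1 TPM on HFD and was not called. Among adipokine receptors, 8 of 10 were tested and Cmklr1, the chemerin receptor, with 101.9 and 103.9 TPM on ND and 55.7 and 52.6 TPM on HFD (-0.91), was the single one called. The adiponectin receptor genes Adipor1 and Adipor2 were not called, and Lepr, the leptin receptor, did not exceed 1.1 TPM. Around Cfd, 7 of 11 listed genes of the alternative complement pathway were tested, and 2 were called, both lower, with a median of -0.16. Cfp, properdin, which stabilizes the convertase that factor D helps to form, had 1713 and 1683 TPM on ND and 608.2 and 620.9 TPM on HFD (-1.46). C3, the central component, had 155.2 and 162.7 TPM on ND and 288.9 and 656.9 TPM on HFD and was not called.

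**Figure D4:**
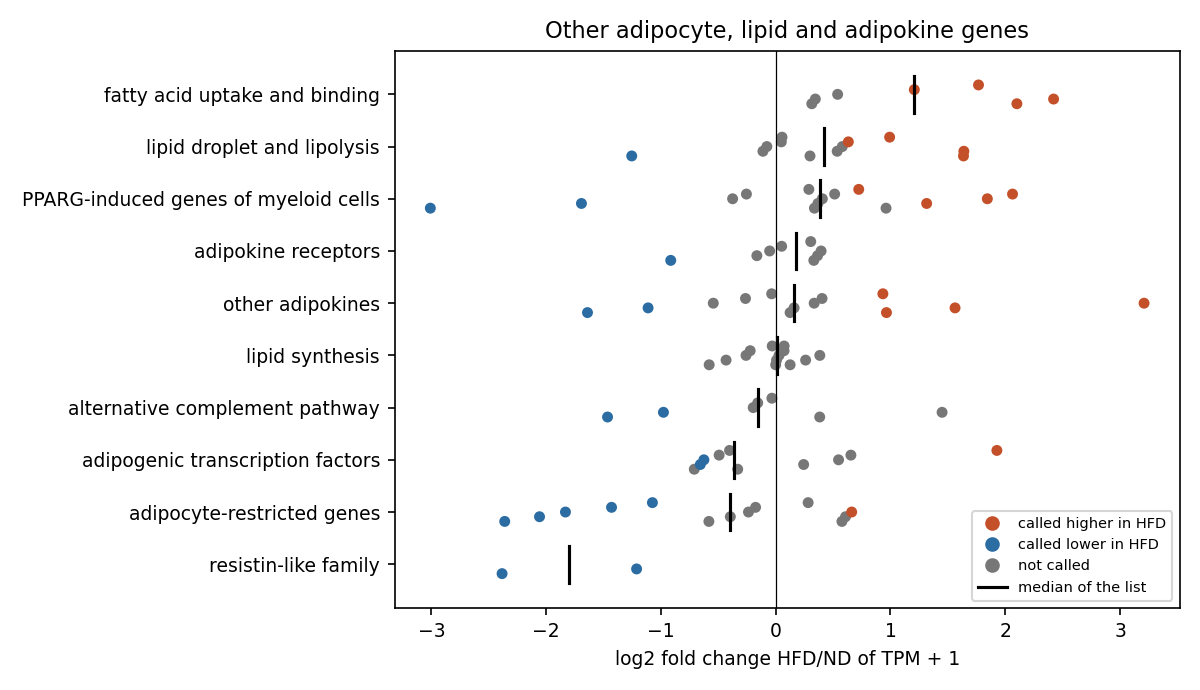
Log2 fold change of TPM + 1 between HFD and ND for each tested gene of 10 lists of adipocyte, lipid and adipokine genes; each point is a gene, colored by its call in limma, and the black bars are the medians of the lists. Fatty acid uptake and binding has the highest median (1.21), and the adipocyte-restricted genes hold 5 genes called lower and 1 called higher.

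Markers of other cells that the fraction may hold are given beside these results, and their part in them was not tested. Fibroblast and progenitor markers, of which 5 of 11 tested were called higher and none lower, summed to 670 and 708.5 TPM on ND, 2690 TPM for HFD replicate 1 and 5242 TPM for HFD replicate 2, with Col3a1 the most abundant. Mesothelial markers summed to between 63.1 and 107.4 TPM, with 1 of 8 tested called lower, and smooth muscle or pericyte markers to between 273 and 395.5 TPM, with 2 of 8 called higher and 3 lower. Epithelial markers, among them Mucl1 and genes of the epididymis, fell in 7 of 12 tested, from 348 and 365.5 TPM on ND to 60.5 and 64.3 TPM on HFD, and one of the 7, Cdh1, was tested through ND alone, where it is higher. Erythroid genes summed to 1803 and 1738 TPM on ND and 866 and 1498 TPM on HFD, and of 5 tested 0 were called, with 0 at an unadjusted p under 0.05 in limma. Of 10 macrophage markers, 2 were called higher and 4 lower, and Timd4, Cd163, Lyve1 and Mrc1, of resident macrophages, were those that fell, beside Cfd. Of 10 monocyte markers, 5 were called lower, with sums of 1449 and 1487 TPM on ND and 599 and 549 TPM on HFD.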

How the data were processed

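CD45+ cells of eWAT were sequenced in 2 ND and 2 HFD libraries, with Illumina stranded mRNA libraries. The authors trimmed reads (Trim Galore 0.4.2, cutadapt 1.9.1), aligned them to mm10 (STAR 2.6.1e), removed duplicates, counted reads per gene (featureCounts 1.6.2) and deposited TPM with 1 decimal, which sum to nearly the same total in each library. The annotation, use of strand and number of mice per library are not given in the sources used here. TPM are shares, so a gene can fall because others rose.

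Values were joined by symbol and compared as log2(TPM + 1) in limma 3.58.1 (R 4.3.3, variance trend). The pseudocount of 1 makes fold changes of low genes smaller. Depth came from microRNA genes, of which 1184 were listed (median length 81 bases) and 239 to 292 were used in a library. Steps were tested on simulated data. Alternatives were other pseudocounts, filters, scalings, fold limits, eBayes without a trend, a replicate block and each library left out. Members, lists and tests were chosen with earlier results of these data known. Named genes were the members, their relatives, the largest called changes and the most abundant gene of each list, and the closest patterns to Adipoq and Cfd; further genes were named after their values were seen. Of the listed genes, 4 had no row of that symbol. Some genes that the rule would name are not reported here. Other assays of the study were not analysed here. Figures used matplotlib 3.10.9.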

Additional observations from a re-analysis of the deposited data

How the results depend on the processing

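Across 86 fits of the members under other pseudocounts, filters, scalings, priors and the replicate block, none changed direction, 78 stayed called or not called as before and 8 calls were lost. The sizes of low genes moved with the pseudocount: adding 5 gave -2.44 for Cfd, 0.66 for Lep, -0.72 for Retn and 0.75 for Pparg, and adding 0.1 gave -5.34, 2.16, -2.49 and 1.37, all called. The adjusted p of Fabp4, never called, rose above 0.05 with no filter (0.118), without a variance trend (0.0560), with the replicate block (0.0691) and under median-ratio scaling (0.209), and that of Plin1 fell to 0.0375 without a variance trend. Without a filter on low values, with 35869 genes tested, the calls of Lep (1.48), Retn (-1.66) and Scd1 (-1.06) were lost, which left 1 member called higher and 1 lower. Over all genes, 803 were then called higher and 975 lower, against 1361 and 1736 of the 16849 in the main fit. With a replicate block the log2 fold changes stayed at 1.48 for Lep, -1.66 for Retn, -1.06 for Scd1 and 1.18 for Pparg but were no longer called, so that 0 members were called higher and 1, Cfd, lower (over all genes, 812 called and 5466 at an unadjusted p under 0.05 in limma). Same-numbered libraries did not deviate together (r = -0.015 across genes) and were therefore not treated as pairs. Median-ratio scaling moved Scd1 to -1.08, no longer called. A filter at a mean of 5 TPM left Lep, Retn, Plin1 and Cidec untested, with 1 member called higher and 2 lower. Over the 10723 genes then tested, 1141 were called higher and 1109 lower.

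With each library left out in turn, a lone library was assumed to vary like those of the other diet. The log2 fold changes ran from -1.30 to -0.42 for Adipoq, -4.35 to -3.80 for Cfd, 1.33 to 1.64 for Lep, -1.85 to -1.47 for Retn, -0.63 to -0.27 for Cidec, -0.40 to 0.25 for Lipe, -1.26 to -0.86 for Scd1 and 1.15 to 1.22 for Pparg. Lep and Retn were called in none of these fits, Adipoq and Cidec only without HFD replicate 1, and Cfd, Scd1 and Pparg only without an HFD library. The members called ran from 0 to 1 higher and from 0 to 4 lower. Without ND replicate 1 or ND replicate 2, 0 of 16849 genes were called, with 3862 and 4024 at an unadjusted p under 0.05 in limma. The cause was not tested. Depth limits Cfd and Retn on HFD, which rest on under 20 reads a library.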
